A study of Mus musculus with 6 samples.

Results

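The genes examined here are the nuclear genes for complex III, complex IV and ATP synthase, with the genes for cytochrome c1 (Cyc1) and cytochrome c (Cycs). Members were all genes in the authors' comparison table whose symbol begins with Uqcr, with Cox followed by a digit from 4 to 8, or with Atp5, and the cytochrome genes were added by name. This gave 45 of the 12629 genes in that table, and each was joined by its identifier to the table of counts, which lists 56923 genes. 9 members belong to complex III (Cyc1 included), 17 to complex IV and 18 to ATP synthase, and Cycs stands alone. Symbols are given as in the table, in which many ATP synthase genes have their older names, and 29 of the 45 symbols are those of the current GENCODE annotation.

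RNA was sequenced from the hearts of 3 WT mice and 3 mice labelled as mutant, all 12 weeks old, with 1 library for each mouse. The study's methods describe the mutants as male heterozygotes for a CRISPR/Cas9 knock-in, Lztr1 R409C/+, backcrossed to C57BL/6J, and the tissue as PBS-perfused left ventricle. The labels give only the genotype class, so the allele comes from the methods. LZTR1 is an adaptor of a ubiquitin ligase that acts on RAS family proteins, and the comparison asks how the mutant heart differs in gene expression.

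In the inner mitochondrial membrane, complex III passes electrons from ubiquinol to cytochrome c, complex IV passes them from cytochrome c to oxygen, and ATP synthase uses the proton gradient built by the chain to make ATP. Each complex joins subunits from nuclear genes, examined here, with subunits from mitochondrial DNA. The heart depends on this system for most of its ATP and expresses muscle-specific isoforms of several complex IV subunits.

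The deposited values are whole-number counts of reads for each gene. Total counts per mouse ranged from 66130887 to 72641124, and they were converted to CPM (counts scaled to a common library total) after scaling by trimmed mean of M values (TMM), which sets the libraries level over most genes. The members took at most 3.01% of all counts in a mouse. Values of single mice are given in the order of their replicate numbers. Lztr1 itself had 24.2, 24.2 and 22.2 CPM in WT mice and 23.9, 27.9 and 25.3 CPM in mutants, so its counts do not tell the knock-in from the WT allele. The libraries differed in their share of mitochondrially encoded RNA: genes of mitochondrial DNA took 36.5%, 37.3% and 13.8% of the counts in the WT mice and 45.4%, 35.0% and 29.7% in the mutants, and WT replicate 3 had the highest TMM factor, 1.39. The p-values below measure the spread between these 6 mice. Since whole tissue was sequenced, fewer cells of a type and less RNA in each cell cannot be told apart.

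Ordered by mean level per kilobase of the canonical transcript, which puts genes of unequal length on 1 scale, Atp5b (1657 CPM per kb) and Atp5a1 (1346 CPM per kb) led all members. They encode the beta subunit of ATP synthase, which holds the catalytic sites, and the alpha subunit that alternates with it. Cox4i1 (965 CPM per kb), a subunit of complex IV added early in its assembly, led that complex, and Uqcrc1 (593 CPM per kb), a core subunit of complex III, led the other. At the low end, the pseudogene Atp5pb-ps had 6.75 CPM per kb and Cox4i2, the isoform of Cox4 best known from lung, had 7.26 CPM per kb. Cox6c2 and Cox5b-ps, copies of Cox6c and Cox5b, were also low, at 11.3 and 14.7 CPM per kb. Reads from such a copy and from its parent gene may have been assigned to either, so the values of these pairs are uncertain.

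**Figure D1:**
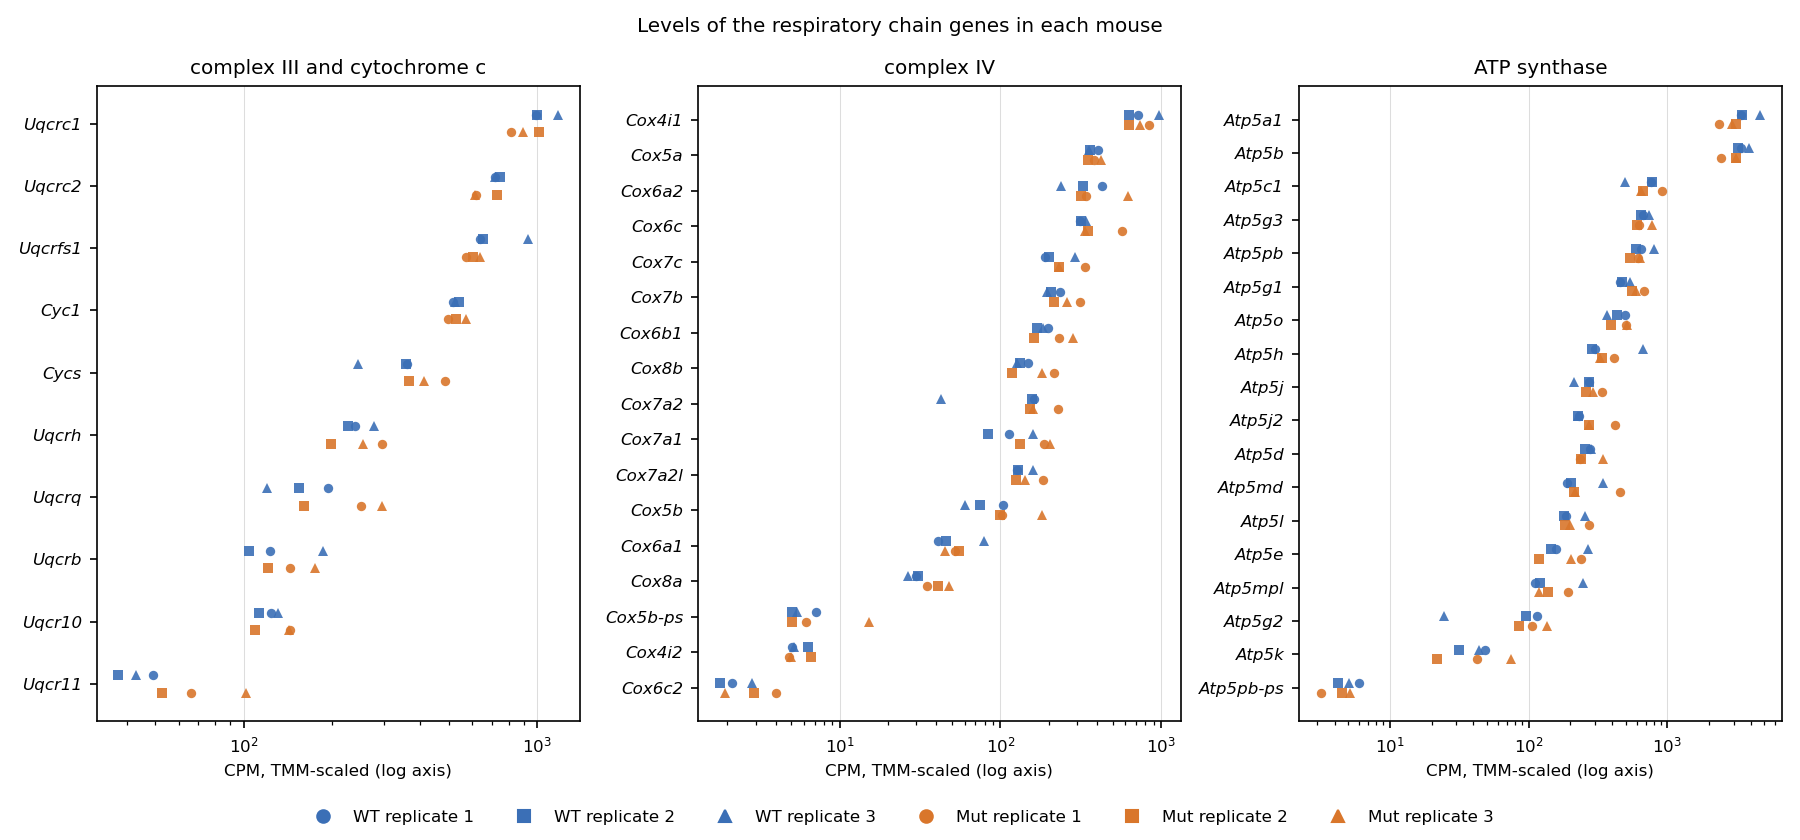
TMM-scaled CPM of each member (log axis) in each of the 6 mice, by complex, with WT mice in blue and Lztr1 R409C/+ mice in orange and the marker shape giving the replicate. For most members the blue and orange points overlap, while WT replicate 3 lies far left of all others in Cox7a2 and Atp5g2.

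All 45 members passed the filter on low counts and were tested among the 17212 genes that did. 0 members passed an adjusted p of 0.05 in the edgeR quasi-likelihood test (Benjamini-Hochberg), in either direction, where 0.0349% of all genes tested were called higher in mutants and 0.00581% lower. The smallest adjusted p of a member in this test was 0.334, for Uqcr11. DESeq2 and edgeR's exact test also called 0 members, with smallest adjusted p-values of 0.0842 and 0.100, where DESeq2 called 0.79% of all genes tested higher and 0.0813% lower and the exact test 0.738% and 0.0755%. At an unadjusted p under 0.05, 6 members were higher in mutants and 0 were lower. These 6 are 13.3% of the members, beside 5.77% of all genes tested that were higher at this threshold and 2.86% that were lower. This count moved with single mice and with scaling: it was 2 without WT replicate 2, 3 without mutant replicate 1, 10 without mutant replicate 2, 0 when libraries were scaled by their totals alone, and 1 after a correction for gene length described below. The values of 5 members (11.1%) lay higher in every mutant than in any WT mouse, beside 8.3% of all genes tested, and those of 3 members (6.67%) lay lower, beside 7.23%. These last shares are near the background.

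By complex, the fitted log2 fold change of mutant over WT was above 0 in 14 of 17 genes of complex IV, in 6 of 9 of complex III and in 10 of 18 of ATP synthase, beside 51.4% of all genes tested. The median log2 fold change was 0.34 in complex IV, 0.01 in complex III and 0.04 in ATP synthase, beside 0.01 over all genes tested. The median standard error of a gene was 0.21 in complex IV, and 3 of its 17 genes had an unadjusted p under 0.05. Scaling by library totals alone moved the median of all genes from 0.01 to -0.14. On that scale the medians were 0.15 in complex IV, still above the other genes, and -0.13 in complex III and -0.15 in ATP synthase, both close to them.

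**Figure D2:**
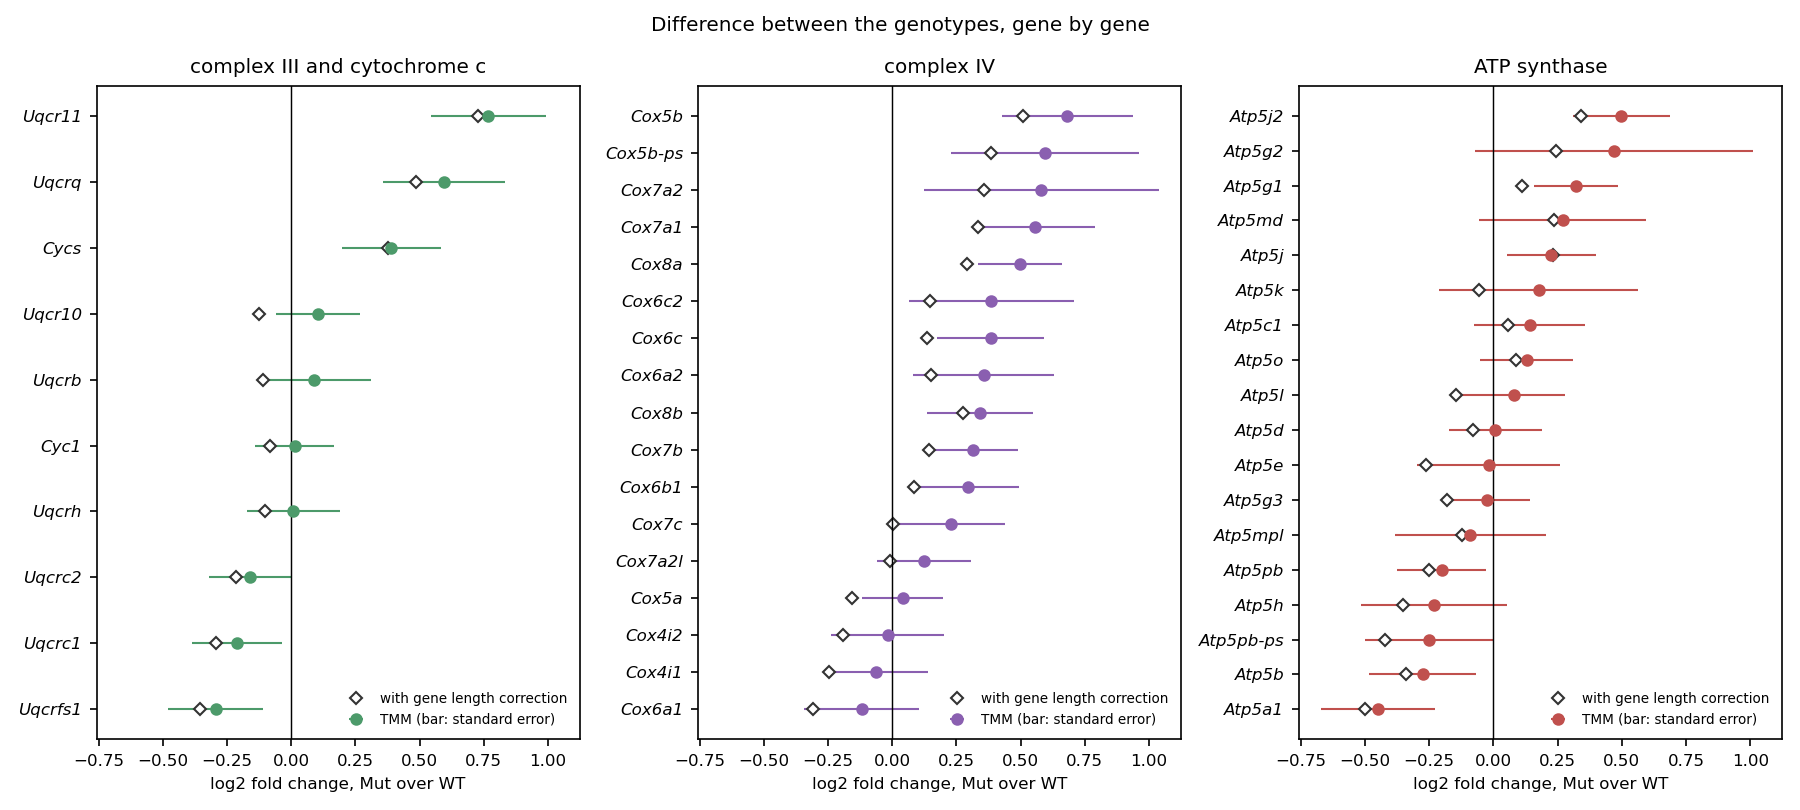
Log2 fold change of Lztr1 R409C/+ over WT mice for each member, by complex, with its standard error (filled points and bars), and the value after correction for gene length (open diamonds). Complex IV lies mostly to the right of 0, with a median of 0.34, or 0.14 with the correction. Complex III and ATP synthase lie on both sides.

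In complex III, Uqcr11 and Uqcrq had the largest positive differences. Uqcr11, the smallest subunit of the complex (chr10:80236542-80242676, GRCm39, minus strand), had 49.3, 37.5 and 43.0 CPM in WT mice and 66.4, 52.6 and 102 CPM in mutants. Every mutant was above every WT mouse. Its log2 fold change was 0.77 ± 0.22 (SE, n = 3 mice per genotype), with an unadjusted p of 0.00502 in the edgeR quasi-likelihood test, which adjustment raised to 0.334. Uqcr11 was positive in all 20 alternative analyses, from 0.46 to 0.95, and was at 0.46 without mutant replicate 3. On the opposite strand a noncoding gene, 3300002P09Rik, shares 970 bases of its exons, and the sources used here do not state whether counting used strand.

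Uqcrq, a small subunit associated with cytochrome b (chr11:53318749-53322047, minus strand), had 193, 154 and 120 CPM in WT mice and 251, 160 and 295 CPM in mutants. Mutant replicate 2 lay within the WT range. Its log2 fold change was 0.59 ± 0.24, with an unadjusted p of 0.0269 in the edgeR quasi-likelihood test, which adjustment raised to 0.525. It was 0.40 without mutant replicate 3, with an unadjusted p of 0.129 in the edgeR fit.

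The core and catalytic genes of complex III had log2 fold changes near or below 0. Uqcrfs1, the Rieske iron-sulfur protein that takes electrons from ubiquinol (chr13:30723448-30729345, minus strand), had 639, 654 and 929 CPM in WT mice and 570, 605 and 637 CPM in mutants. All mutants were below all WT mice, the nearest pair by about 2 CPM, and WT replicate 3 was far above the other mice. Its log2 fold change was -0.29 ± 0.19, with an adjusted p of 0.697 in the edgeR quasi-likelihood test (Benjamini-Hochberg). It was -0.10 without WT replicate 3 and -0.06 without this mouse and mutant replicate 1. Uqcrc1 and Uqcrc2, the large core proteins on the matrix side, had log2 fold changes of -0.21 ± 0.18 and -0.16 ± 0.16, and their groups overlapped. Uqcrc1 was at -0.13 without WT replicate 3, and Uqcrc1 and Uqcrc2 were at -0.31 and -0.25 without mutant replicate 2. Cyc1, which carries the haem that hands electrons to cytochrome c, was at 527 ± 13.0 CPM (SD) in WT mice and 532 ± 38.4 CPM in mutants, a log2 difference of 0.01 ± 0.15. The other small subunits, Uqcr10, Uqcrb and Uqcrh, had log2 fold changes of 0.11, 0.09 and 0.01 with overlapping groups, and all 3 were below 0 when scaled by library totals (-0.07, -0.13 and -0.19) or corrected for transcript length (-0.13, -0.11 and -0.10). Uqcrb was at 0.37 without WT replicate 3 and at 0.38 without this mouse and mutant replicate 1.

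Cycs, the mobile carrier between complexes III and IV (chr6:50539541-50543557, minus strand), had 359, 358 and 246 CPM in WT mice and 485, 365 and 411 CPM in mutants. The groups did not overlap, though mutant replicate 2 was within 7 CPM of a WT mouse. The log2 fold change was 0.39 ± 0.19, with an adjusted p of 0.599 in the edgeR quasi-likelihood test (Benjamini-Hochberg). Leaving out WT replicate 3, the lowest mouse, gave 0.23, and leaving out mutant replicate 1 as well gave 0.12.

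In complex IV, Cox8a, Cox5b and Cox7a1 had an unadjusted p under 0.05. Cox8a, the isoform of subunit 8 present in most tissues (chr19:7192515-7194997, minus strand), had 29.9, 30.8 and 26.4 CPM in WT mice and 34.7, 40.6 and 47.6 CPM in mutants. It was the only gene of the complex in which every mutant exceeded every WT mouse. Its log2 fold change was 0.50 ± 0.16, with an unadjusted p of 0.0103 in the edgeR quasi-likelihood test, which adjustment raised to 0.437.

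Cox5b, a subunit on the matrix side that binds zinc (chr1:36730530-36734495, plus strand), had 103, 75.1 and 60.0 CPM in WT mice and 102, 99.9 and 180 CPM in mutants. WT replicate 1 was above mutant replicates 1 and 2, so the groups overlapped, and mutant replicate 3 was apart from the rest. The log2 fold change was 0.68 ± 0.25, with an adjusted p of 0.495 in the edgeR quasi-likelihood test (Benjamini-Hochberg). It was 0.34 without mutant replicate 3, with an unadjusted p of 0.142 in the edgeR fit, and 0.92 without WT replicate 1. Its copy Cox5b-ps had its highest value in the same mouse, 15.2 CPM, against 5.01 to 7.13 CPM in the others, and its log2 fold change of 0.59 turned to -0.06 without that mouse.

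Cox7a1, the muscle isoform of subunit 7a (chr7:29883569-29885503, plus strand), had 113, 84.0 and 160 CPM in WT mice and 187, 133 and 204 CPM in mutants, with mutant replicate 2 below WT replicate 3. The log2 fold change was 0.55 ± 0.24, with an adjusted p of 0.554 in the edgeR quasi-likelihood test (Benjamini-Hochberg), and it was 0.35 without WT replicate 2. The subunits that start the assembly had small differences: Cox4i1 had 772 ± 177 CPM in WT mice and 739 ± 105 CPM in mutants, and Cox5a had a log2 difference of 0.04 ± 0.16, which was -0.10 when scaled by library totals. Cox4i1 turned from -0.06 to 0.13 without WT replicate 3, where it was highest. The other genes above 0 ranged from 0.12 (Cox7a2l, a factor in joining complexes III and IV) to 0.59 (Cox5b-ps), all with overlapping groups. Cox6b1, a subunit on the side facing the intermembrane space, stood at 0.29 ± 0.20. Cox6b1 was at 0.10 without mutant replicate 3, at 0.48 without mutant replicate 2 and at 0.08 when corrected for transcript length. Cox7a2l turned to -0.09 when scaled by library totals. Cox6a1 and Cox4i2 were below 0 at -0.12 and -0.02, and Cox6a1 became 0.22 without WT replicate 3 while Cox4i2 became 0.02 under upper-quartile scaling.

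Several subunits have a heart and muscle form and a form of most other tissues, and the share of the muscle form among both, per kilobase, can be read within a mouse without any scaling between mice. The Cox6a2 share of Cox6a was 89.9%, 85.7% and 71.8% in WT mice and 84.6%, 82.9% and 92.0% in mutants. The Cox7a1 share of Cox7a was 56.5%, 49.6% and 87.3% in WT mice and 60.2%, 61.7% and 70.3% in mutants. The Cox8b share of Cox8 was 56.6%, 52.9% and 55.8% in WT mice and 62.1%, 43.4% and 50.0% in mutants. Its level depends on the length taken for Cox8b, whose canonical transcript has 2149 bases, of which 210 are coding and 1231 overlap Psmd13 on the opposite strand. Without division by length the Cox8b share was 74.5% to 86.2%. The Cox7a1 share without it was 34.8% to 78.8%, so which form of Cox7a was the larger also depends on length. WT replicate 3 had the lowest Cox6a2 share and the highest Cox7a1 share. For subunit c of ATP synthase, whose ring turns as protons pass, 3 genes encode the same mature protein, and the Atp5g1 share among them was 47.3%, 49.5% and 53.2% in WT mice and 58.8%, 55.8% and 50.0% in mutants. The groups overlapped in all 4 families, and two-sided exact permutation tests over mice gave p-values of 0.7, 1, 0.6 and 0.2, in this order, and 0.933, 1, 0.933 and 0.8 after adjustment over the 4. With 3 mice against 3 the smallest p is 0.1, so this test could not reach 0.05.

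In ATP synthase, Atp5j2 (now Atp5mf), a subunit of the membrane part (chr5:145120505-145128872, minus strand), was the one gene with an unadjusted p under 0.05. It had 229, 228 and 227 CPM in WT mice and 420, 274 and 272 CPM in mutants. The mutants were all above the WT mice, and mutant replicate 1 was apart from the other mutants. The log2 fold change was 0.50 ± 0.19, with an unadjusted p of 0.0218 in the edgeR quasi-likelihood test, which adjustment raised to 0.502. It was 0.25 without mutant replicate 1, with an unadjusted p of 0.0994 in the edgeR fit.

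Of the subunit c genes, Atp5g1 (chr11:95959678-95966757, minus strand) had 457, 474 and 540 CPM in WT mice and 680, 561 and 597 CPM in mutants, without overlap. Its log2 fold change was 0.32 ± 0.16, with an adjusted p of 0.616 in the edgeR quasi-likelihood test (Benjamini-Hochberg), and it was 0.13 when scaled by library totals and 0.11 when corrected for transcript length. Atp5g3 was level at -0.03 ± 0.17, and turned to 0.02 under upper-quartile scaling. Atp5g2 was at 115, 96.1 and 24.5 CPM in WT mice and 106, 84.7 and 135 CPM in mutants. Its fold change of 0.47 ± 0.54 rests on WT replicate 3, which was under 0.3 of the level in every other mouse.

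The genes of the alpha and beta subunits were lower in each mutant than in any WT mouse. Atp5a1 had 3384, 3473 and 4660 CPM in WT mice and 2357, 3127 and 2949 CPM in mutants. Atp5b (chr10:127919132-127926261, plus strand) had 3412, 3212 and 3860 CPM in WT mice and 2422, 3140 and 3101 CPM in mutants. In both genes mutant replicate 1 was lowest and WT replicate 3 highest, and the groups did not overlap. The log2 fold changes were -0.45 ± 0.22 and -0.28 ± 0.21, with adjusted p-values of 0.601 and 0.757 in the edgeR quasi-likelihood test (Benjamini-Hochberg). Atp5a1 was at -0.29 without WT replicate 3 and Atp5b at -0.17 without mutant replicate 1, and without both mice they were at -0.17 and -0.09. The unadjusted p of Atp5a1 was 0.0659 in this quasi-likelihood test and 0.0163 in DESeq2.

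Among the stalk subunits, Atp5pb, which links the membrane part to the head, was at -0.20 ± 0.17. Atp5j (now Atp5pf) was at 0.23 ± 0.17, and the groups overlapped in both genes. Without WT replicate 3, Atp5pb and Atp5j were at -0.07 and 0.11, and without mutant replicate 1 as well at -0.08 and 0.01. Atp5j shares 1196 bases of its exons with Gabpa on the opposite strand. The other genes ranged from -0.25 (the pseudogene Atp5pb-ps) to 0.27 (Atp5md). In Atp5h, also of the stalk, WT replicate 3 had 669 CPM against 289 to 410 CPM in all other mice, and its log2 fold change turned from -0.23 to 0.27 without that mouse. Atp5md turned to -0.20 without mutant replicate 1.

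The 6 core and catalytic genes of complex III and ATP synthase (Uqcrc1, Uqcrc2, Uqcrfs1, Cyc1, Atp5a1 and Atp5b) were then set beside the other genes of these complexes, and because this division was drawn with the values in view, it is given without a test. The log2 fold change was below 0 in 5 of the 6, with a median of -0.24, while 15 of the other 21 genes were above 0, with a median of 0.11. Over the 20 alternative analyses, 5 or 6 of the 6 stayed below 0, with medians from -0.41 to -0.07, and the weakest was the analysis without WT replicate 3 and mutant replicate 1. These analyses all refit the same mice, or some of them, and are not separate evidence. The other 21 genes had medians from -0.11 to 0.22, and the length corrections and scaling by library totals took them below 0. As a share of the summed CPM of all members, a ratio within a mouse, the 6 genes took 51.1%, 52.7% and 54.8% in WT mice and 38.7%, 51.4% and 45.2% in mutants, with mutant replicate 2 in the WT range. Atp5a1 and Atp5b alone took 36.0%, 36.6% and 39.4% in WT mice and 25.5%, 35.2% and 31.2% in mutants, without overlap. Each of these genes was already lower in every mutant, so this share is not separate evidence.

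The 6 genes have long reading frames, with a median coding length of 1400 bases against 344 bases in the other genes of these complexes. Over the 43 members with a coding length, Pearson's r between log2 coding length and log2 fold change was -0.57 and Spearman's rho was -0.49. These are values across genes that share the same 6 libraries. With the log2 length of the canonical transcript in its place, over all 45 members, they were weaker, at -0.24 and -0.23. With log2 mean CPM in its place, over all 45 members, they were -0.37 and -0.46. Length and level were not separated. The whole table was examined by transcript length. With all genes divided into 4 classes of equal size by length of the canonical transcript, the median log2 fold change was 0.15 in the shortest class, 0.04 and -0.02 in the middle classes and -0.08 in the longest. 32 of the 45 members fall in the shortest class and 0 in the longest.

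**Figure D3:**
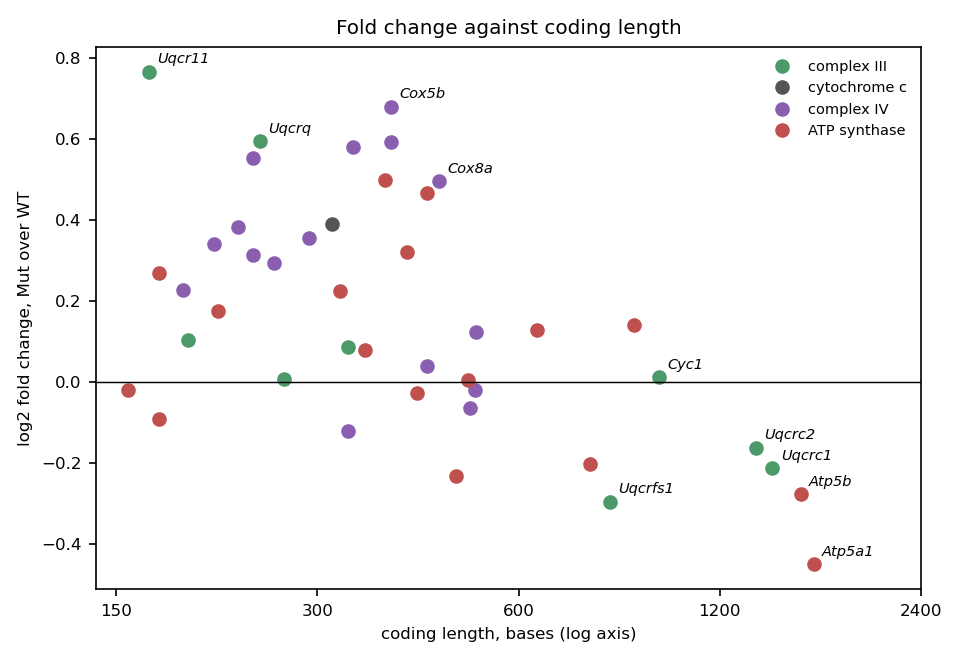
Log2 fold change of Lztr1 R409C/+ over WT mice against coding length in bases (log axis) for the 43 members with a coding length, coloured by complex. The long core and catalytic genes lie near or below 0. Short genes such as Uqcr11 and Cox5b lie highest, with a Pearson's r of -0.57 across genes, taken with log2 coding length.

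A smooth trend of counts against transcript length was therefore removed from each mouse and the fit repeated. The mean trend over the members was -0.03, -0.11 and 0.01 (log2) in WT mice and 0.21, -0.01 and 0.10 in mutants, highest in mutant replicate 1. After the correction, 22 of the 45 members were above 0, beside 49.0% of all genes tested. The medians were 0.14 in complex IV (12 of 17 genes above 0), -0.11 in complex III (2 of 9) and -0.10 in ATP synthase (7 of 18). Corrected by coding length in place of transcript length, an alternative chosen after seeing the data, the medians were 0.05, -0.16 and -0.12. The 6 core and catalytic genes were all below 0 under both corrections, with medians of -0.32 by transcript length and -0.23 by coding length, and the other 21 genes of complex III and ATP synthase had medians of -0.08 and -0.11. Uqcr11 had a log2 fold change of 0.73 by transcript length, with an unadjusted p of 0.00594 in the edgeR fit, and of 0.46 by coding length, with an unadjusted p of 0.0553. By transcript length Cox8a went to 0.29, Cox5b to 0.51 and Cox7a1 to 0.33. Atp5a1 stood at -0.50, with an unadjusted p of 0.0403 in the edgeR fit, which adjustment raised to 0.605. By coding length Cox8a, Cox5b, Cox7a1 and Atp5a1 were at 0.35, 0.50, 0.32 and -0.43. The cause of the relation was not tested.

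Mouse by mouse, the summed level of complex IV was 3226, 2883 and 3244 CPM in WT mice and 4046, 3005 and 3876 CPM in mutants. That of complex III was 3589, 3572 and 4108 CPM against 3396, 3517 and 3686 CPM. That of ATP synthase was 11720, 11438 and 14042 CPM against 10847, 10904 and 11418 CPM. The groups overlapped in complexes III and IV, and in ATP synthase, where Atp5a1 and Atp5b hold the highest levels, the highest mutant lay just under the lowest WT mouse. Taken as the mean log2 deviation of each gene from its own mean, which weights genes alike, complex IV stood at -0.07, -0.21 and -0.16 in WT mice and at 0.26, -0.06 and 0.25 in mutants. Mutant replicates 1 and 3 lay well above all WT mice. Mutant replicate 2 lay within 0.02 of a WT mouse. Without mutant replicate 1 the median log2 fold change of complex IV was 0.14, and without mutant replicate 2 it was 0.48.

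**Figure D4:**
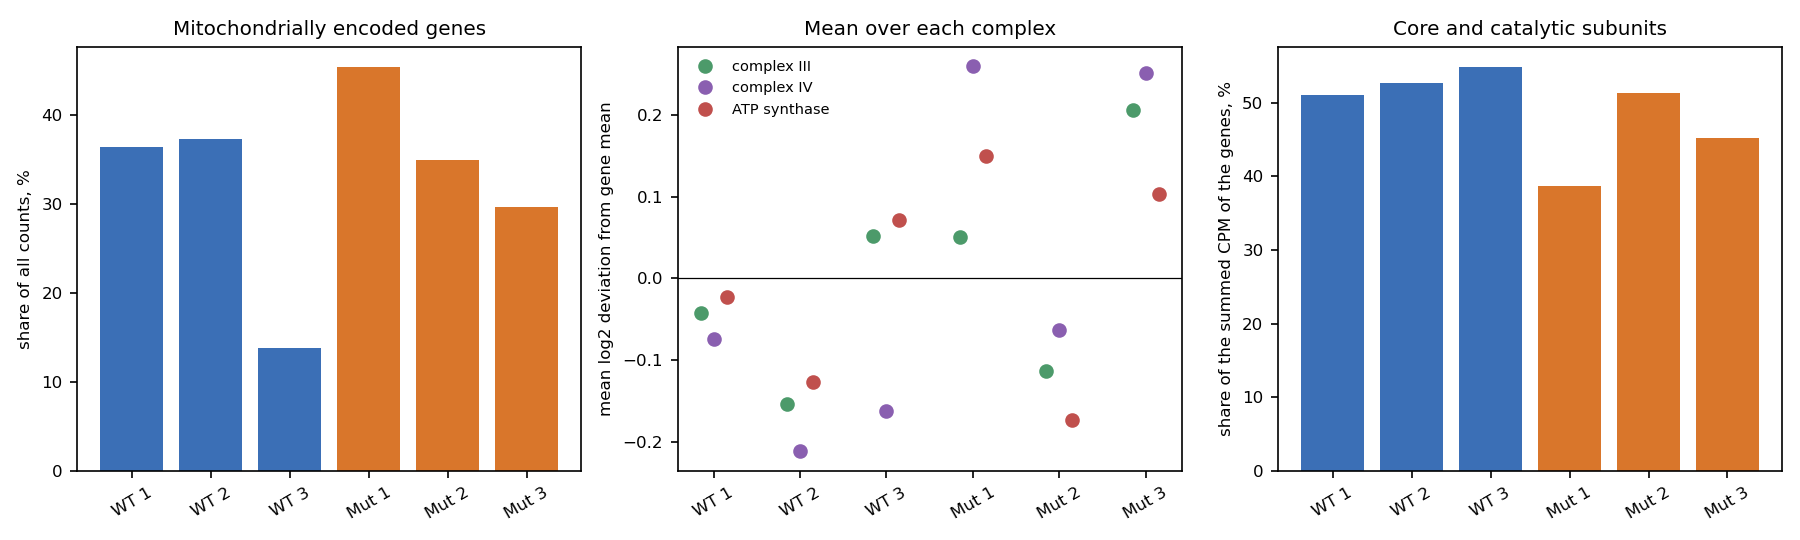
For each mouse (WT in blue, Lztr1 R409C/+ in orange), the percentage of counts on mitochondrially encoded genes (left), the mean log2 deviation over the genes of each complex (centre) and the percentage of the members' summed CPM on the 6 core and catalytic genes (right). WT replicate 3 has the lowest mitochondrially encoded share, 13.8%, and mutant replicate 1 the highest, 45.4%, while mutant replicate 1 also has the lowest core share, 38.7%.

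The extreme values were spread over several mice. Mutant replicates 1 and 3 had the highest of the 6 values in 16 and 15 members. WT replicate 3 had the highest in 11 members and the lowest in 12. Against the mean of the other WT mice it was lowest in Atp5g2 (0.231 times) and Cox7a2 (0.270 times) and highest in Atp5h (2.26 times) and Atp5mpl (2.14 times). Cox7a2, the partner of Cox7a1, was at 161, 158 and 42.9 CPM in WT mice and 229, 152 and 160 CPM in mutants, so its log2 fold change of 0.58 ± 0.46 rests on this library. Without WT replicate 3, 36 of the 45 members were above 0 and the medians were 0.29 in complex IV, 0.09 in complex III and 0.07 in ATP synthase. Without both this mouse and mutant replicate 1, the lowest and highest by mitochondrially encoded share, they were 0.20, 0.06 and 0.07, and Cox7a2 stood at -0.03.

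The rest of the chain and its regulators were described from lists written from general knowledge of the pathway. 0 genes of these lists passed an adjusted p of 0.05 in the edgeR quasi-likelihood test (Benjamini-Hochberg). Of 39 complex I genes tested, 30 were above 0, with a median of 0.15, and 3 were higher and 1 lower at an unadjusted p under 0.05. The gene lower at that p was Ndufs1 (-0.52 ± 0.19), a core subunit, and those higher were Ndufs6 (0.71 ± 0.24), Ndufb4 (0.63 ± 0.25) and Ndufv3 (0.55 ± 0.24). Complex II had 3 of 4 genes below 0, with a median of -0.27. The 6 mitochondrially encoded subunits of complexes III, IV and ATP synthase were all above 0, with a median of 0.44. Their summed levels overlapped widely, at 228316, 242445 and 58320 CPM in WT mice and 339151, 202017 and 162359 CPM in mutants. The positive values lean on WT replicate 3, since the other WT mice lay within the range of the mutants. After the correction for transcript length the medians were 0.03 in complex I, -0.28 in complex II and 0.21 in the mitochondrially encoded subunits.

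Among the assembly genes, 4 of 9 for complex III, 17 of 33 for complex IV and 2 of 6 for ATP synthase were above 0, with medians of -0.03, 0.03 and -0.04, or of -0.06, -0.03 and -0.09 after the correction for transcript length. The list for complex IV also holds Ndufa4 (0.32), a structural subunit first assigned to complex I, and Ndufa4l2 (0.12), and both are counted in the complex I list as well. At an unadjusted p under 0.05, the lists for complexes III and IV each had 1 gene higher and 1 lower, and those for ATP synthase assembly, complex II and the mitochondrially encoded subunits had 0. The assembly lists hold 3 genes with larger differences than any member of the same sign. Uqcc2, needed to make cytochrome b for complex III, had 15.2, 12.6 and 8.76 CPM in WT mice and 26.9, 17.9 and 29.7 CPM in mutants. Lrpprc and Slirp form 1 complex that stabilises mitochondrial mRNA, and they differed in opposite directions without overlap. Lrpprc had 262, 282 and 383 CPM in WT mice and 136, 226 and 180 CPM in mutants, and Slirp had 11.3, 10.6 and 3.86 CPM and 21.1, 12.7 and 20.6 CPM. The log2 fold changes were 1.03 ± 0.24 for Uqcc2, -0.77 ± 0.21 for Lrpprc and 1.08 ± 0.36 for Slirp, with adjusted p-values of 0.215, 0.290 and 0.457 in the edgeR quasi-likelihood test (Benjamini-Hochberg). Of 16 transcriptional regulators of mitochondrial genes, 14 were below 0, with a median of -0.20 (-0.19 after the correction), and 0 had an unadjusted p under 0.05 in either direction. Ppargc1a, the coactivator that drives mitochondrial biogenesis, had a log2 fold change of -0.28 ± 0.21, and Esrrg, a nuclear receptor acting with it, had -0.31 ± 0.16.

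Markers of the cells in the samples were set beside these values. The summed level of 10 cardiomyocyte genes was 42865 to 47987 CPM in WT mice and 34055 to 47843 CPM in mutants, with a log2 fold change above 0 in 4 of the 10 and below 0 in 6. All 10 macrophage and leukocyte markers were above 0, summing to 219 to 252 CPM in WT mice and 371 to 484 CPM in mutants. All 10 had an unadjusted p under 0.05 and 9 had groups that did not overlap, and C1qb and C1qc were among the genes called, each with an adjusted p of 0.0241 in the edgeR quasi-likelihood test. All 5 erythroid genes were above 0, summing to 579 to 1479 CPM in WT mice and 1042 to 2625 CPM in mutants, highest in mutant replicate 1, and 3 of the 5 had an unadjusted p under 0.05. Of 8 fibroblast markers 5 were above 0 and 3 below, and 3 were higher and 0 lower at an unadjusted p under 0.05, among them Lum (0.61 ± 0.17). Of 8 endothelial markers 6 were above 0 and 2 below, with 1 higher and 0 lower at that p. Of 6 smooth muscle and pericyte markers 2 were above 0 and 4 below, with 0 higher and 2 lower at that p, Myh11 (-0.71 ± 0.23) and Tagln (-0.65 ± 0.23). The atrial markers Nppa and Myl4 had log2 fold changes of 0.53 ± 0.28 and 0.06 ± 0.49 with overlapping groups, while the atrial genes Sln and Myl7 had at most 19 counts in any mouse. Of the adipocyte markers, brown fat included, Ucp1 had 0 counts in every mouse, Adipoq, Plin1 and Cidec had at most 12 counts in any mouse, and only Cidea was tested (log2 fold change 0.14 ± 0.20). The part of these cells in the differences above was not tested.

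Promoters were read to see what sequence features the members share. RefSeq windows from 250 bases before to 50 bases after the annotated start (build GRCm38.p6) were matched by symbol for 32 of the 45 members. Those without an entry were Atp5a1, Atp5mpl, Atp5pb-ps, Cox4i1, Cox4i2, Cox5b-ps, Cox6a2, Cox6c, Cox6c2, Cyc1, Uqcrb, Uqcrc2 and Uqcrq. The full site of nuclear respiratory factor 1 (NRF1), a regulator of respiratory chain genes, was searched on both strands, as were all motifs below. It was present in 4 of the 32 genes (12.5%), beside 1.07% of the 27025 symbols in the table and 1.47% of its 17492 protein-coding symbols. The sites that lie upstream of the start are shown as examples of this feature, with the NRF1 letters in capitals, which spell out the motif searched:
Atp5g2, chr15:102671048-102671129, minus strand: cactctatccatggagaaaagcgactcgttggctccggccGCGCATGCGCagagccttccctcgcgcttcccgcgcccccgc
Atp5k, chr5:108434400-108434489, minus strand: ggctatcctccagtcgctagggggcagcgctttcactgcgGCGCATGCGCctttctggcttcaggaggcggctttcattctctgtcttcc
Cox6a1, chr5:115349071-115349160, minus strand: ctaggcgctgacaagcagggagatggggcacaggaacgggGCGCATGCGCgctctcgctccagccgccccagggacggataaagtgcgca

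These sites end 32, 40 and 152 bases before the start, and in Uqcrc1 the letters lie after the start. With the fifth base of the motif free, a search that takes in the full site, 8 of the 32 had a match (25%), beside 5.19% of all symbols, and 7.17% of protein-coding symbols. By complex these were 6 of the 15 ATP synthase genes with a window, 1 of 11 of complex IV and 1 of 5 of complex III. The ETS and GABPA letters CCGGAAGT were found in 12.5% of the members beside 4.31% of all symbols and 5.69% of protein-coding ones, the oestrogen-related receptor letters AAGGTCA in 12.5% beside 5.38% and 4.73%, the YY1 letters AAGATGGCG in 6.25% beside 1.64% and 2.14%, and the SP1 letters GGGCGG in 34.4% beside 38.2% and 49.2%. Uqcr11, the member with the smallest p, had the ETS letters 58 bases before its start, in capitals here:
Uqcr11, chr10:80406840-80406927, minus strand: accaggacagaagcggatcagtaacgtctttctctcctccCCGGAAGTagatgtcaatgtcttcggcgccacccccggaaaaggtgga

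Genes with the full NRF1 letters had log2 fold changes of both signs, from -0.21 in Uqcrc1 and -0.12 in Cox6a1 to 0.18 in Atp5k and 0.47 in Atp5g2, and Atp5k turned to -0.35 without mutant replicate 3. The ETS letters were held by Uqcr11 (0.77), Cox8a (0.50), Uqcrh (0.01) and Atp5h (-0.23). A match of letters is a description of the window and was not tested as a binding site.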

How the data were processed

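The authors trimmed reads with Trim Galore, aligned them to GRCm39 with HISAT2 and assigned them to genes with StringTie, per the study's methods and processing notes. The annotation release, strand setting and tool versions are not given in the sources used here. The table the authors deposited holds raw, whole-number counts of each gene in each mouse. The authors also deposited their edgeR comparison, holding log2 fold changes, log2 CPM, p-values and adjusted p-values, of which only identifiers and symbols were used.

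Counts were filtered with filterByExpr (17212 genes kept), scaled by TMM and compared between 3 WT and 3 mutant mice with the robust quasi-likelihood test of edgeR 4.0.16 in R 4.3.3, two-sided, with Benjamini-Hochberg adjustment over all genes tested at 0.05. The common biological coefficient of variation was 26.1%. 3 counts correspond to 0.0317 to 0.0541 CPM, a limit set by counting error alone. Isoform shares were compared with exact permutation tests of 3 mice against 3. Gene positions and lengths came from GENCODE M39 on GRCm39, in which all 45 members have an entry, and length is that of the canonical transcript. The length correction removed a lowess curve (span 0.3) of counts on length from each mouse as an offset. In a test on simulated counts of 17212 genes for this comparison, 200 genes were given a log2 change of 1. Of these, quasi-likelihood testing found 86, with 9 false calls, edgeR's exact test 100 and 28, DESeq2 1.42.0 111 and 22, and quasi-likelihood testing with length correction 87 and 9. The simulated counts held no length trend, so the last pair cannot show how the correction acts on one.

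The members, the lists and the tests were chosen with earlier results of these data known. Genes were named as the 3 with the smallest p in each direction in each complex, the member of each complex with the highest level per kb, isoform pairs, subunit c genes, Cyc1, Cycs, Uqcrfs1, Uqcr11, Atp5if1, Cox7a2l and Atp5b. Other genes were named after their values were seen. Alternatives were other scalings, filters and tests, removal of mitochondrially encoded genes, the length correction, a block for replicate number and the omission of each mouse. The labels name no batch.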

Additional observations from a re-analysis of the deposited data

How the results depend on the processing

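Under all 20 alternative analyses, 0 members passed an adjusted p of 0.05. Omitting each mouse in turn gave 2 to 10 members higher at an unadjusted p under 0.05, beside 4.80% to 5.72% of all genes tested. The medians were 0.14 to 0.48 in complex IV, -0.06 to 0.14 in complex III and -0.0652 to 0.195 in ATP synthase. The differences in isoform share ranged from -1.30 to 7.75 percentage points in Cox6a, from -7.86 to 10.99 in Cox7a, from -8.37 to 0.95 in Cox8 and from 2.87 to 7.25 in the Atp5g1 share, beside 4.04, -0.42, -3.26 and 4.83 with all mice. Scaling by library totals gave 0 members higher at that p and medians of 0.15, -0.13 and -0.15 in complexes IV, III and ATP synthase. The length correction gave 1 higher and 1 lower and medians of 0.14 and -0.10 in complex IV and ATP synthase. Union exon length gave 0.19 in complex IV and 3 members higher (Uqcr11, Cox5b and Atp5j2) and 2 lower at that p, Atp5a1 and Uqcrfs1 (-0.419, unadjusted p of 0.0370 in the edgeR fit), and coding length 0.0467, -0.16 and -0.12 in the 3 complexes. 1 member, Atp5a1, was lower at that p in DESeq2, in the exact test, without a filter and without mitochondrially encoded genes.

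Deviations of same-numbered mice correlated at -0.00, 0.02 and -0.06, so the counts showed no pairing by replicate number. This check cannot tell whether mice were littermates or handled together. A replicate block gave 6 members higher and 0 lower at that p, with Cox7a2 in place of Cox5b, beside 5.25% and 1.88% of all genes tested. A block with the length correction gave 1 and 0, beside 4.37% and 1.91%, with medians of 0.12 in complex IV and -0.12 in ATP synthase. Of 27 named genes, 18 kept their sign in every alternative. Library totals, the length correction, and the length correction with a block gave -0.0721, -0.127 and -0.131 for Uqcr10, -0.133, -0.0832 and -0.0857 for Cyc1, and -0.0896, -0.00738 and -0.0126 for Cox7a2l. Cyc1 was -0.000602 without a filter. The upper quartile gave 0.0222 for Cox4i2 and 0.0169 for Atp5g3. Without WT replicate 3 and mutant replicate 1 together, Cox4i1 was 0.0293, Cox4i2 0.0237, Cox6a1 0.205, Cox7a2 -0.0309 and Atp5g3 0.0743. Omitting each mouse in turn gave -0.0412 to 0.0551 for Cyc1, -0.151 to 0.0375 for Atp5g3, -0.193 to 0.133 for Cox4i1, -0.189 to 0.0850 for Cox4i2, -0.296 to 0.224 for Cox6a1, -0.0151 to 0.586 for Cox6a2 and -0.0554 to 0.236 for Cox7a2l. The cause was not tested.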

Other observations

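The inhibitor of ATP synthase that binds it when the proton gradient fails, Atpif1 (now Atp5if1), has a symbol outside the naming rule. It had 41.6, 43.1 and 46.5 CPM in WT replicates 1, 2 and 3 and 60.9, 51.8 and 59.5 CPM in mutant replicates 1, 2 and 3, without overlap. Its log2 fold change was 0.39 ± 0.15, with an unadjusted p of 0.0204 in the edgeR quasi-likelihood test, which adjustment raised to 0.495. Cox6b2, the form of Cox6b known from testis, had 12 to 45 counts per mouse, and Cox8c had 0 counts in every mouse.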
